A study of Mus musculus with 3 samples.

Results

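The genes described here are 10 genes of the colony-stimulating factor and interleukin 6 systems, chosen by symbol: the growth factors Csf1, Csf2 and Csf3, the cytokines Il6, Il11, Lif and Il33, the shared receptor chain Il6st, the transcription factor gene Stat3 and the inhibitor gene Socs3. All 10 were found among the 55471 features of the table, each on a single row, and all 10 averaged 1 TPM or more across the libraries, the limit used here for a measured gene. TPM is an abundance scaled to gene length, so levels can be set side by side between genes. The data are RNA sequencing of cultured cells from 3 populations of JC, a mouse mammary carcinoma line, with 1 polyadenylated-RNA library each. All were grown in DMEM with fetal bovine serum and penicillin-streptomycin, and all carry the genotype label WT. JC-WT has the treatment label WT. JC-P cells came from tumours in the mammary fat pad at day 14, and JC-M3 cells from lung metastases freed with type I collagenase after 3 rounds of tail vein injection of JC-P-derived cells, each followed by isolation at day 28. Both JC-P and JC-M3 carry the treatment label metastasis, so the origin of JC-P rests on the protocol. Whether JC-P and JC-M3 are pools or clones, and which host mice were used, is not given in the sources used here.

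Colony-stimulating factors are secreted proteins that drive the growth of myeloid cells: Csf1 encodes the macrophage factor M-CSF, Csf2 the granulocyte-macrophage factor GM-CSF and Csf3 the granulocyte factor G-CSF, and many tumours secrete them. Interleukin 6, interleukin 11 and leukemia inhibitory factor each bind a receptor of their own that pairs with gp130, the product of Il6st. The complex activates JAK kinases, which phosphorylate STAT3, and STAT3 induces Socs3, whose product blocks the same receptor. Interleukin 33, of the interleukin 1 family, is a nuclear alarmin that signals through ST2, the product of Il1rl1.

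The libraries held 18093420 (JC-WT), 22132591 (JC-P) and 23386412 (JC-M3) reads, as recovered from the values. Of 10 mammary epithelial markers, 4 were measured (Krt8, Krt18, Krt7 and Esr1), with a summed level of 1559, 1926 and 709 TPM. Where 3 values follow each other, they are those of JC-WT first, then JC-P, then JC-M3. Epcam and Elf5 had 0 reads in every library, and Cdh1, the epithelial cadherin, stood at 0, 0.832 and 0.669 TPM. Of the markers that define epithelium mainly the keratin pair Krt8 and Krt18 was thus present, at 681 and 18.4 TPM in JC-M3, lower than in the other libraries. The 4 measured markers did not move together. Against JC-P, 2 were higher in JC-M3, 1 of them at least 2-fold, and 2 were lower, each at least 2-fold. Against JC-WT, 1 was higher by less than 2-fold and 3 were lower, 2 of them at least 2-fold. Of 13 macrophage and neutrophil markers, 3 were measured (Cd68, Cd14 and S100a8) and 7 had 0 reads in all 3 libraries, among them the leukocyte gene Ptprc and the macrophage gene Adgre1. Their summed level was 70.3, 50.9 and 76.6 TPM. Of 10 lymphocyte markers 5 had 0 reads throughout, and the sum of 74.0, 65.0 and 81.5 TPM was almost all Gata3, which mammary cells also express. Of 12 fibroblast and endothelial markers 7 were measured, with sums of 220, 434 and 1093 TPM, most of it the collagen gene Col1a1, while Lum and Kdr had 0 reads. That sum was highest in JC-M3, as were the macrophage and neutrophil sum and the lymphocyte sum. Its 7 measured genes did not move together. Set against JC-P, 2 of them rose in JC-M3 and 3 fell, each by a factor of 2 or more. Set against JC-WT, 4 rose by that much and 0 fell by that much. Of all measured features, 3.82% were at least 2-fold higher and 5.38% lower in JC-M3 against JC-P. Against JC-WT the shares were 6.14% and 5.27%. Csf1, Il6 and Lif were highest in JC-M3 too, and the part of these 3 sums in their values was not tested.

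Csf1 was the most abundant of the 10 transcripts in every library, with 316, 310.4 and 532 TPM. Next in JC-WT came Il6st at 128 TPM, Stat3 at 74.1 TPM, Socs3 at 57.2 TPM and Csf3 at 44.3 TPM. The remaining cytokines were scarcer there, from Lif at 17.3 TPM through Il11 at 12.1 TPM, Csf2 at 6.75 TPM and Il33 at 3.49 TPM to Il6 at 0.384 TPM. In JC-M3 the order differed: Socs3 stood second at 76.5 TPM, Csf3 had moved from position 5 to position 7 and Csf2 from position 8 to position 10, the last. With 1 library per population there is no spread between replicates, so neighbours in this order cannot be separated beyond counting error. In bulk RNA, fewer cells that express a gene and less of its RNA per cell cannot be told apart.

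**Figure D1:**
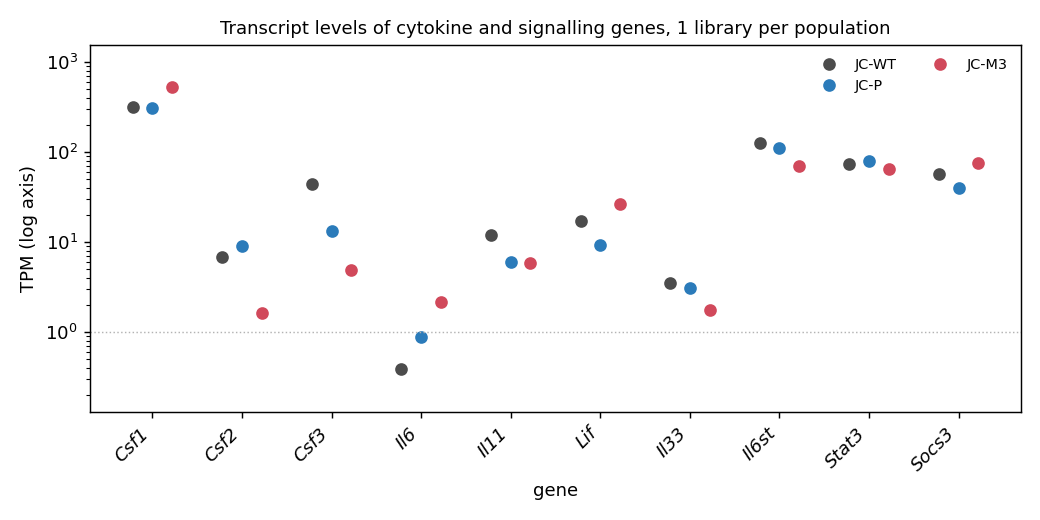
Level of each of the 10 genes in TPM (log axis), 1 point per library, with a dotted line at 1 TPM. Csf1 lies above all others in each library, Csf3 steps down from 44.3 to 4.85 TPM across JC-WT, JC-P and JC-M3, and Il6 steps up from 0.384 to 2.16 TPM.

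Reference promoters are shown for the members in which a search found a binding motif, because transcription of these cytokines is classically controlled by such short elements next to the start site. RefSeq start sites on GRCm38.p6 were held for 9 of the 10 genes, with 11 windows, and not for Csf3. The 250 bases before each start were searched on both strands for a STAT motif (TTCNNNGAA), an AP-1 motif (TGANTCA), a C/EBP motif (TTNNGNAAT) and an NF-kB motif (GGG, then 2 bases of any kind, then TTTCC). No match overlapped another, and position -1 is the base before the start. Capitals mark the matches, the letters run 5′ to 3′ on the gene's strand, and bases that GENCODE M21 annotates as exon are left out. These are letters of the reference genome, not read from JC cells.
Il6, chr5:30012864-30013113 (+ strand): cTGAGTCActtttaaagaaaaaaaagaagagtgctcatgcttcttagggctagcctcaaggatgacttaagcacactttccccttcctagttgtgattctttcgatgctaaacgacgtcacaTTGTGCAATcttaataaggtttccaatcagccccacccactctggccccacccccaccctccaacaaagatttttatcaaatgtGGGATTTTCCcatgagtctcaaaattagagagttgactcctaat
Lif, chr11:4257318-4257556 (+ strand): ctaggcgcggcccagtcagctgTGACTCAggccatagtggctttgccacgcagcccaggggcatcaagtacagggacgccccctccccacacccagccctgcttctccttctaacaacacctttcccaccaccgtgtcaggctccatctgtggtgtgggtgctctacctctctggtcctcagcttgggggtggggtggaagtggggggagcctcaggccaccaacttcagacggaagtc
Il11, chr7:4778142-4778391 (- strand): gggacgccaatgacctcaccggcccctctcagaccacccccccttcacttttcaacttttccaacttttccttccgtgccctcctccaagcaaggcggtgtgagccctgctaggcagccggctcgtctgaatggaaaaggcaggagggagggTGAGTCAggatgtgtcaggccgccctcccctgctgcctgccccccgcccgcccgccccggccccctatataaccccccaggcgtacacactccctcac
Csf1, chr3:107760470-107760719 (- strand): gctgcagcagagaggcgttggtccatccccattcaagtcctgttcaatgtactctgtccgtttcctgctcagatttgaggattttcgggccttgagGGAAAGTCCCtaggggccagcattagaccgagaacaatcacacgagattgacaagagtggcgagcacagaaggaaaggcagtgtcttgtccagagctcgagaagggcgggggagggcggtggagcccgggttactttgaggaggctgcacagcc
Socs3, chr11:117969452-117969616 (- strand): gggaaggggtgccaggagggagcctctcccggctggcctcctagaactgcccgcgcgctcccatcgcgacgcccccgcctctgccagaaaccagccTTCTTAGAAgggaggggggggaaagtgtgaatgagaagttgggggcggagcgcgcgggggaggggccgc
Il6 held 3 matches, an AP-1 match at positions -249 to -243 from the start, a C/EBP match at -128 to -120 and an NF-kB match at -44 to -35. Lif and Il11 held an AP-1 match each, at -228 to -222 and -98 to -92. Another Il11 window, beside the 5′ end of its GENCODE gene model at 4782859, held no match and is not shown. Csf1 held an NF-kB match at -154 to -145 and Socs3 a STAT match at -154 to -146. Of all 32851 RefSeq promoter windows searched in the same way, 6.75% held the AP-1 letters, 10.2% the C/EBP letters, 1.41% the NF-kB letters and 7.02% the STAT letters. The windows of Csf2, Il6st, Stat3 and Il33 held none of them, and for Csf2 that window lies wholly upstream of the GENCODE gene, whose 5′ end is at 54249667. The windows of Il11 and Socs3 shown lie inside a longer GENCODE gene model. Of the 3 genes with AP-1 letters, Il6 and Lif were highest in JC-M3 and Il11 was highest in JC-WT.

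Ratios between libraries are given as log2 of TPM + 0.5, which makes differences of scarce transcripts look smaller, and a gene was called where the ratio was at least 2-fold. The range in parentheses is the 95% exact counting interval of the plain TPM ratio, covers counting error only and need not be centred on the log2 value of a scarce transcript. No comparison could be tested, since each population has 1 library, and a call is a description of a pair of libraries. For JC-P over JC-WT, 0 of the 10 genes were called higher and 1 lower, beside 4.76% and 2.33% of all 14527 measured features. For JC-M3 over JC-P, 1 was called higher and 2 lower, beside 3.82% and 5.38%. For JC-M3 over JC-WT, 1 was called higher and 2 lower, beside 6.14% and 5.27%. The gene called higher was Il6, which passed the limit of 1 TPM only through JC-M3. Its call, here and at the other limits below, is thus not independent of the filter. The median log2 ratio of the 10 was -0.19, -0.18 and -0.50 in this order, against 0.01, -0.01 and 0.00 over all measured features. The counting interval excluded equal levels for 6, 9 and 10 of the 10 genes. Such counts rise with read depth, and the share over all measured features was not computed. They are therefore not a trait of these 10 genes. At a limit of 1.5-fold, 1 was called higher and 3 lower for JC-P over JC-WT (12% and 6.9% of all measured features), 4 and 4 when JC-M3 was set over JC-P (10% and 13.3%), and 3 and 5 when it was set over JC-WT (14% and 12.5%). At 3-fold the same counts were 0 and 1 (1.95% and 0.909%), 0 and 1 (1.51% and 2.11%), and 1 and 2 (2.63% and 2.2%). The comparisons share libraries and are not independent of each other.

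**Figure D2:**
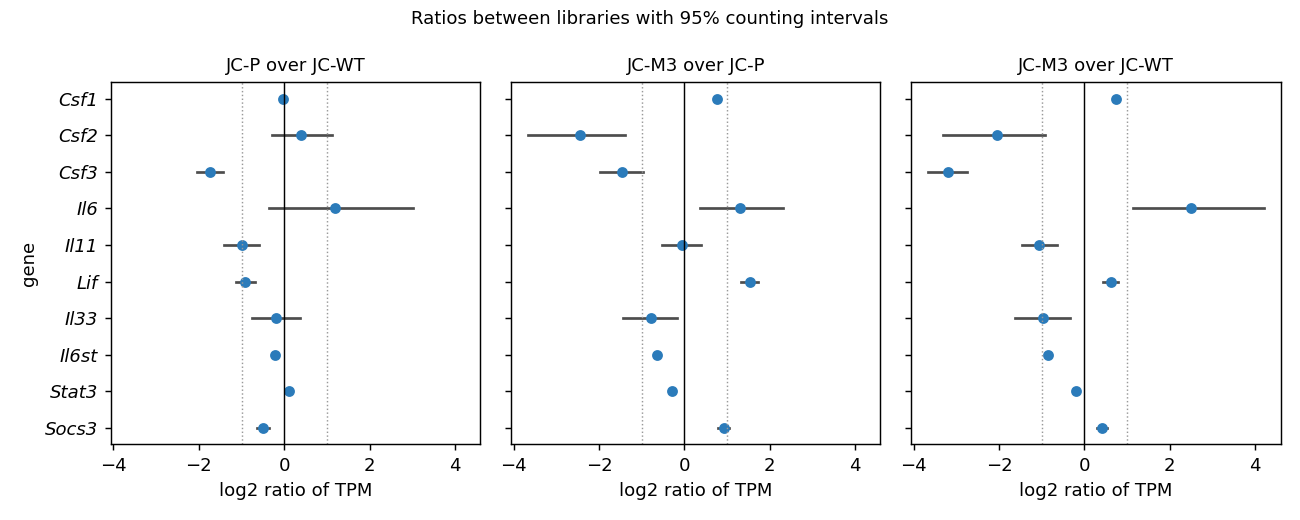
Plain log2 ratio of TPM for each gene (points) with the 95% counting interval (bars), 1 panel per comparison, dotted lines at 2-fold. In the panel of JC-M3 over JC-WT, Csf3 lies farthest left and Il6 farthest right, with the widest intervals for Csf2 and Il6, the genes with the fewest reads.

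Among the colony-stimulating factors, Csf3 and Csf2 were far lower in JC-M3 than in JC-WT while Csf1 was higher. Csf3, on chromosome 11 from 98701263 to 98703629 (GRCm38), stood at 44.3, 13.4 and 4.85 TPM, from 336, 124 and 47 reads. It was lower at each step. The log2 ratio was -1.69 (-2.04 to -1.43) for JC-P over JC-WT and -1.37 (-1.98 to -0.97) for JC-M3 over JC-P. Between JC-M3 and JC-WT it was -3.07 (-3.66 to -2.75). The last of these is 9.14-fold on the plain TPM scale and ranked 57 from the bottom of the 14527 measured features.

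Csf2, also on chromosome 11 (54247271 to 54249667), stood at 6.75, 8.94 and 1.64 TPM, from 29, 47 and 9 reads. JC-WT and JC-P did not differ beyond counting error (0.38, -0.29 to 1.12), and JC-M3 lay below both. Its ratio was -2.14 (-3.66 to -1.40) for JC-M3 over JC-P, rank 154 from the bottom, and -1.76 (-3.31 to -0.92) for JC-M3 over JC-WT. Of the exon bases of Csf2, 12% overlap the opposite-strand gene Gm12223, and the strand setting of the counting is not given in the sources used here. Both Csf2 and Csf3 were lowest in JC-M3, and Csf3 was also lower in JC-P than in JC-WT.

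Csf1, on chromosome 3 from 107741048 to 107760469, rested on 8954, 10771 and 19266 reads. Its levels in JC-WT and JC-P differed by -0.03 (-0.07 to 0.02) on the log2 scale, and JC-M3 lay above both by 0.78 (0.74 to 0.81) and 0.75 (0.72 to 0.79), short of 2-fold. The 549 measured protein-coding genes of chromosome 3 had a median log2 ratio of 0.25 for JC-M3 over JC-P. With that median subtracted, Csf1 stood 0.52 higher. Between JC-M3 and JC-WT the chromosome's median was 0.31, and Csf1 stood 0.44 higher with it subtracted. The balance between the macrophage and granulocyte factors differed between the libraries: in TPM, Csf1 exceeded Csf3 by 7.13 times in JC-WT, by 23.2 times in JC-P and by 109.7 times in JC-M3. Against Csf2 the same quotient was 46.8, 34.7 and 324.

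**Figure D3:**
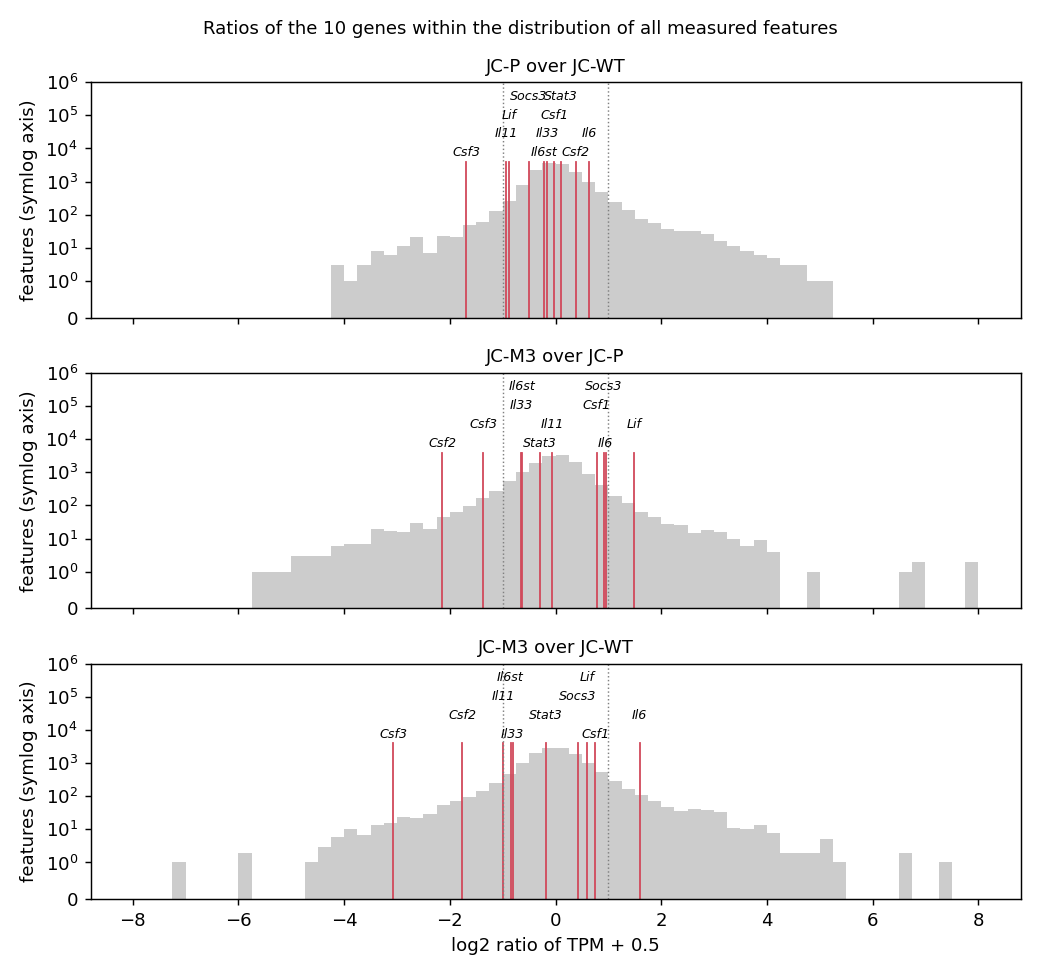
Number of measured features by log2 ratio of TPM + 0.5 (grey bars, 0.25 wide, symlog axis) with the 10 genes as red lines, 1 panel per comparison, dotted lines at 2-fold. Most of the 10 lie in the body of the distribution, and Csf3 at -3.07 and Il6 at 1.59 lie in its tails for JC-M3 over JC-WT. Il6 passed the limit for a measured gene only through JC-M3.

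The receptors for the colony-stimulating factors were nearly silent in these cells. Csf3r, the G-CSF receptor gene, and Csf2ra, the GM-CSF alpha chain gene, had 0 reads in all 3 libraries, which allows up to 0.155 TPM and 0.195 TPM in the shallowest of them, JC-WT, at a floor of 3 reads. Csf1r, the M-CSF receptor gene, had 17, 11 and 8 reads, or 0.549, 0.290 and 0.202 TPM, and part of it overlaps the opposite-strand gene Hmgxb3. The common beta chain gene Csf2rb had 18, 13 and 11 reads, and 12.3% of its 50-base windows also occur in other genes, mainly Csf2rb2. Of the 6 genes in the list of these receptors with Il34, only Il34 was measured. Il34 encodes the other ligand of the M-CSF receptor and stood at 91.1, 104.6 and 82.4 TPM, within 2-fold in every comparison. Both ligands of that receptor were thus abundant in libraries where the receptor itself was near the limit of detection.

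**Figure D4:**
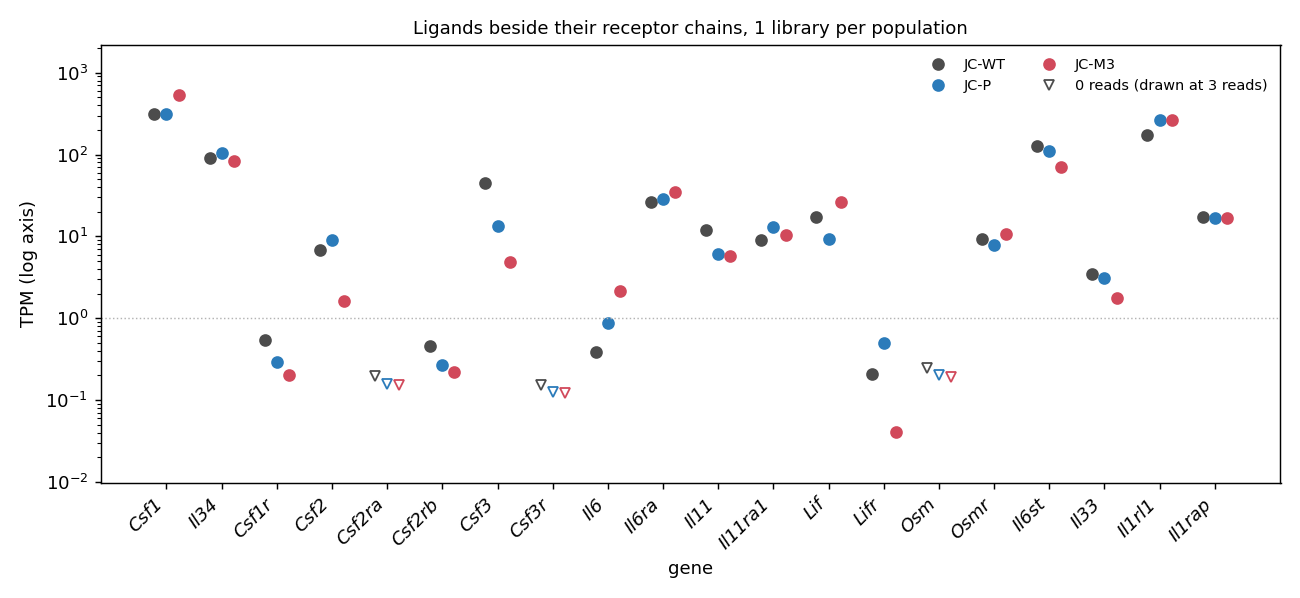
Levels of ligands and receptor chains in TPM (log axis), 1 point per library; open triangles stand for 0 reads and are drawn at the level of 3 reads, and the dotted line marks 1 TPM. Csf1 and Il34 lie above Il6ra in every library while Csf1r, Csf2ra, Csf2rb, Csf3r and Lifr lie below 1 TPM, and Il1rl1 lies far above Il33.

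The ligands of the interleukin 6 family each followed a course of their own. Lif, which maintains mouse stem cells in culture, lies on chromosome 11 (4257557 to 4272514) and stood at 17.3, 9.20 and 26.6 TPM, from 404, 263 and 793 reads. JC-P was the low library. Its log2 ratio was -0.88 (-1.14 to -0.68) for JC-P over JC-WT and 1.48 (1.33 to 1.74) for JC-M3 over JC-P, the latter rank 253 from the top, so that JC-M3 ended 0.60 (0.44 to 0.80) above JC-WT. Lif was the only member called higher in JC-M3 over JC-P.

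Il6, the inflammatory cytokine that names the family, lies on chromosome 5 (30013114 to 30019981) and had only 5, 14 and 36 reads. That is 0.384, 0.877 and 2.16 TPM. The step from JC-WT to JC-P was within counting error (0.64, -0.36 to 3.02), and that from JC-P to JC-M3 was not (0.95, 0.37 to 2.31). JC-M3 stood above JC-WT by 1.59 (1.14 to 4.20), or 5.63-fold on the plain TPM scale, a call that was lost with a pseudocount of 2. Il6 passed the limit of 1 TPM only through JC-M3, so its being measured and its being higher there are not separate facts.

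Il11, a profibrotic member of the family on chromosome 7 (4772373 to 4782859), stood at 12.1, 6.07 and 5.81 TPM, from 135, 83 and 83 reads. The whole difference lay in the first step, with -0.94 (-1.41 to -0.59) for JC-P over JC-WT and -0.06 (-0.52 to 0.39) for JC-M3 over JC-P. For JC-M3 over JC-WT it came just short of a call, 0.00461 from the limit on the log2 scale. Lif and Il11 were therefore both lower in JC-P, and Lif alone was higher again in JC-M3.

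Of 8 further ligand genes of the family, 4 were measured. Clcf1, encoding cardiotrophin-like cytokine, stood at 94.1, 78.9 and 67.7 TPM, above Lif and Il11 in all 3 libraries. Ctf1, encoding cardiotrophin 1, was level at 28.4, 28.5 and 26.6 TPM. Cntf, the ciliary neurotrophic factor gene, was called higher in JC-M3 than in either other library, from 1, 5 and 20 reads, but 78.9% of its exon bases lie in exons of Zfp91 on the same strand and its level is uncertain. Like Il6, Cntf passed the limit of 1 TPM only through JC-M3, so its call there follows from the filter and supports nothing. Oncostatin M (Osm) had 0 reads in every library.

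Il6st, the gp130 gene on chromosome 13 (112464070 to 112510086), stood at 128, 110.3 and 70.8 TPM, from 7634, 8046 and 5393 reads. It was lowest in JC-M3, with -0.22 (-0.26 to -0.17) for JC-P over JC-WT, -0.64 (-0.69 to -0.59) for JC-M3 over JC-P, and -0.85 (-0.91 to -0.81) between JC-M3 and JC-WT. The 437 measured protein-coding genes of chromosome 13 had a median log2 ratio of -0.52 between JC-M3 and JC-P and -0.44 between JC-M3 and JC-WT. With these medians subtracted, Il6st stood at -0.12 and -0.41. Chromosome 11, which carries Csf2, Csf3, Lif, Stat3 and Socs3, had medians of only -0.06, -0.04 and -0.09 over 948 genes, while its 5 members went both ways.

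Of the 8 receptor genes of the family, Il6st included, 4 were measured and 0 were called in any comparison. With 2.33% to 6.14% of all measured features called per direction, 0 among 4 genes says little. Il6ra, the interleukin 6 receptor alpha chain gene, stood at 26.7, 28.7 and 35.3 TPM, 0.40 (0.30 to 0.51) higher in JC-M3 than in JC-WT. Osmr, the oncostatin M receptor gene, stood at 9.17, 7.84 and 10.7 TPM. Il11ra1 stood at 8.92, 12.9 and 10.3 TPM, and its level is uncertain because 46.3% of its sequence, in windows of 50 bases, recurs in Il11ra2 or Gm13305. Lifr, through which leukemia inhibitory factor acts, had 12, 35 and 3 reads, at most 0.494 TPM, with a plain log2 ratio of -3.61 (-5.95 to -1.94) for JC-M3 over JC-P. The library with the most Lif was thus the library with the fewest Lifr reads.

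Stat3, the transcription factor that relays these signals, lay within 2-fold in every comparison. It lies on chromosome 11 (100885098 to 100939540) and stood at 74.1, 79.9 and 65.0 TPM, from 3789, 5003 and 4249 reads. The ratios were 0.11 (0.05 to 0.17), -0.30 (-0.36 to -0.24) and -0.19 (-0.25 to -0.13). Of the 9 measured genes among the JAK kinases and other STATs, the only call was Stat2, an interferon signalling factor, at 111, 221 and 232 TPM and 1.06 (1.01 to 1.12) for JC-M3 over JC-WT. In that comparison 6.14% of all measured features were called higher, so 1 call among 9 genes says little. Jak1 stood at 54.6, 62.3 and 77.1 TPM and Jak2 at 21.2, 19.1 and 12.7 TPM, in opposite order and within 2-fold.

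Socs3, the feedback inhibitor on chromosome 11 (117966079 to 117970047), stood at 57.2, 40.3 and 76.5 TPM, from 888, 765 and 1518 reads. As with Lif, JC-P was the low library and JC-M3 the high one. The ratios were -0.50 (-0.65 to -0.37), 0.92 (0.80 to 1.05) and 0.42 (0.30 to 0.54), none of them a call. All 16 genes of the list of JAK-STAT inhibitors, Socs3 included, were measured and 0 were called in any comparison. Beside this stand 2.33% to 6.14% of all measured features per direction, so 0 among 16 genes says little. Socs3 had the largest log2 ratio of the 16 for JC-M3 over JC-P, beside Socs1 at 17.4, 23.9 and 22.1 TPM and Cish, a STAT5-induced inhibitor gene, at 3.54, 3.06 and 1.91 TPM.

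Genes known as STAT3 targets were divided. Of 20 such genes, Socs3 and Stat3 among them, 18 were measured. For JC-P over JC-WT 0 were called higher and 2 lower (median log2 ratio -0.33). For JC-M3 over JC-P 2 were called higher and 2 lower (0.30), and between JC-M3 and JC-WT 0 higher and 2 lower (0.07). Of all measured features, 4.76% and 2.33%, 3.82% and 5.38%, and 6.14% and 5.27% were called higher and lower in this order. Their medians were 0.01, -0.01 and 0.00. The small counts of targets were not tested against these shares. The target median for JC-M3 over JC-P had no stable direction, since among the targets averaging 10 TPM or more it was -0.03. Cebpd, a C/EBP transcription factor gene, stood at 7.71, 2.80 and 7.51 TPM, with -1.31 (-1.89 to -1.04) and then 1.28 (1.02 to 1.84) in successive steps. Junb, an AP-1 subunit gene, stood at 90.9, 72.6 and 147 TPM, with 1.01 (0.91 to 1.12) for JC-M3 over JC-P. Below a call, the kinase gene Pim3 stood at 63.8, 48.0 and 83.5 TPM, Pim1 at 2.00, 1.36 and 2.86 TPM and Myc at 123, 82.7 and 105 TPM. These were lowest in JC-P, as Socs3 and Lif were, though the first step of Pim1 was within counting error (-0.43, -1.30 to 0.18). Other targets of the list took the opposite course and were highest in JC-P. The C/EBP factor gene Cebpb stood at 92.8, 116 and 98.6 TPM, the hypoxia factor gene Hif1a at 107, 136 and 114 TPM, and the angiogenic factor gene Vegfa at 40.4, 51.7 and 42.2 TPM, with counting intervals that excluded equal levels at both steps. Both steps use the JC-P library, so their directions are not independent. Opposite-strand genes also overlap 20.7% of the exon bases of Cebpb and 14.5% of those of Pim1. As for Csf2 and Cebpd, the strand setting of the counting is not given in the sources used here.

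Other targets were lower in JC-M3. Bcl2l1, which encodes the survival protein BCL-XL, stood at 123, 77.8 and 33.2 TPM, with -1.22 (-1.34 to -1.12) against JC-P and -1.88 (-2.00 to -1.79) against JC-WT. Lcn2, the lipocalin gene, stood at 152, 11.2 and 0.667 TPM and had the lowest ratio of all 14527 measured features for JC-M3 over JC-WT, -7.03 (-8.79 to -7.03). Lcn2, Bcl2l1 and Csf3 were each lower at both steps. Mcl1, a survival gene of the same family as Bcl2l1, was instead highest in JC-M3 at 182, 198 and 250.3 TPM.

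**Figure D5:**
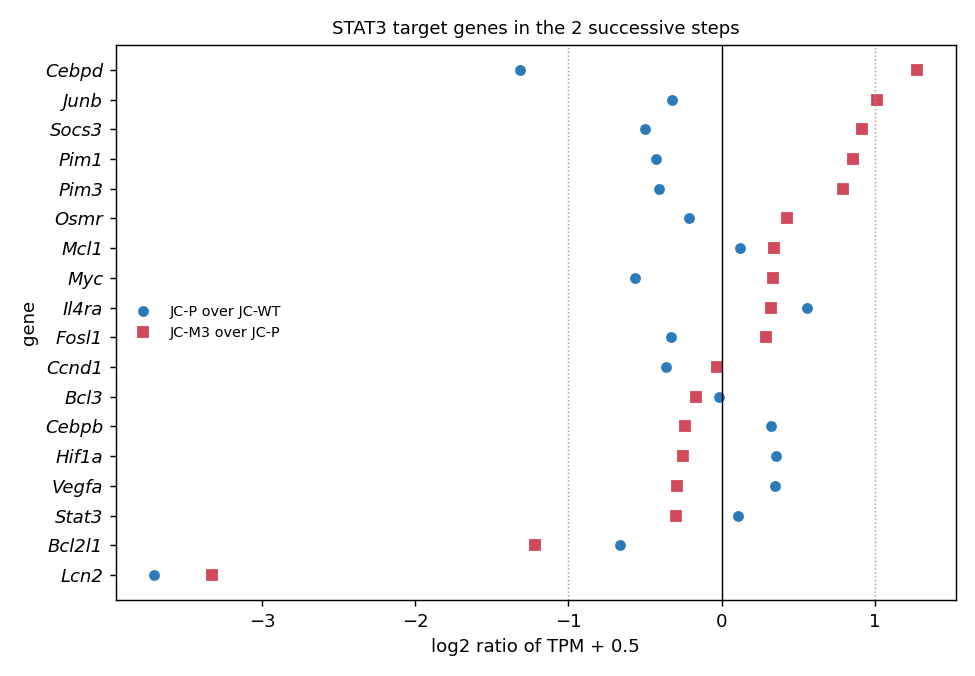
Log2 ratio of TPM + 0.5 for the 18 measured STAT3 target genes, circles for JC-P over JC-WT and squares for JC-M3 over JC-P, dotted lines at 2-fold. Cebpd, Junb, Socs3, Pim1 and Pim3 have circles left and squares right of 0, Cebpb, Hif1a and Vegfa the reverse, and both symbols of Bcl2l1 and Lcn2 lie left. The symbols share the JC-P library.

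Il33 was scarce and its receptor abundant. Il33, on chromosome 19 (29925114 to 29960718), stood at 3.49, 3.06 and 1.77 TPM, from 54, 58 and 35 reads. JC-WT and JC-P did not differ beyond counting error (-0.16, -0.75 to 0.37), and JC-M3 was lower than JC-WT by a log2 ratio of -0.81 (-1.64 to -0.34), short of a call. Il1rl1, which gives rise to both membrane ST2 and a soluble decoy that gene-level values do not separate, stood at 173, 268 and 268 TPM. It was 0.63 (0.59 to 0.67) higher in JC-P than in JC-WT and level between JC-P and JC-M3. The quotient of Il1rl1 to Il33 in TPM was 49.6, 87.5 and 152.

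The co-receptor gene Il1rap was level at 17.4, 17.0 and 16.9 TPM, and the adaptor gene Myd88 stood at 126, 105.7 and 108 TPM. Of 14 genes of the interleukin 1 family and this signalling route, 10 were measured. The only calls were those of Il18, a relative of Il33, at 15, 41.5 and 14.1 TPM. Its ratio was 1.44 (1.11 to 1.84) for JC-P over JC-WT and -1.52 (-1.90 to -1.22) for JC-M3 over JC-P, the reverse of the order seen for Lif. Of all measured features, 4.76% were called higher in the first of these comparisons and 5.38% lower in the second. So 1 called gene among 10 says little. Il1b had 0 reads in all 3 libraries and Il1a 1 read in JC-WT alone.

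For the 4 called members, the genes with the most similar profile were found by Euclidean distance between centred log2 values over the 3 libraries, among 8639 genes averaging 10 TPM or more. With only 3 libraries many genes share a profile, so likeness is a description. Nearest to Lif was Rnd1 (26.4, 14.1 and 38.7 TPM, distance 0.05), followed by Ereg, the epiregulin gene (83.6, 44.4 and 116 TPM), and the linker histone gene H1f10. Nearest to Il6 were Gnb4, a G protein subunit gene (9.86, 15.6 and 31.4 TPM, distance 0.03), Selenop and Lipg. Nearest to Csf2 were Ralgds (39.3, 49.0 and 10.7 TPM, distance 0.06), the small nucleolar RNA gene Snord93 and Zfp1010. The log2 values are of TPM + 0.5, which shrinks the ratios of scarce Il6 and Csf2, so these matches hold on that scale only. Il6 had 5 reads in JC-WT and was 5.63-fold higher in JC-M3 on the plain TPM scale. Csf2 had 9 reads in JC-M3. Csf3 had no close match: Spmip3, the integrin gene Itgb4 and the desmosomal gene Pkp1 came nearest, at distances of 0.43, 0.46 and 0.49.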

How the data were processed

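Total RNA of 3 JC populations, 1 library each, was sequenced after oligo(dT) selection with a stranded kit, per the labels' protocols. The authors deposited TPM values, an abundance per gene length with a common total in each library, as the file headers and the column totals show. Upstream, FastQC 0.11.9, STAR 2.7.9a, featureCounts, mm10 and GRCm38 are listed in the submitters' processing notes. Neither the annotation nor how strand was handled is given in the sources used here.

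The log2 ratio of TPM + 0.5 was taken among the 14527 of 55471 features averaging 1 TPM or more, and 2-fold was the limit of a call. No test was possible with 1 library per group. TPM times gene length (merged exons, GENCODE M21, 55230 features) gave whole reads, within 0.01 of a read, for 98.4%, 98.5% and 98.5% of expressed features, in the order JC-WT, JC-P, JC-M3. From these came depths, exact conditional (Clopper-Pearson) 95% intervals and a floor of 3 reads. Duplicate reads are not independent molecules, so both cover counting error only. Shared sequence is the share of 50-base transcript windows that also occur in other genes. The genes named are the 10 members, measured genes of the lists, with those past 2-fold always eligible, and the 3 genes most like each called member. Unmeasured receptors and ligands and markers at 0 reads were named after their values were seen. Some genes of the lists are not reported here by name, though list counts include them. Members and lists were chosen with earlier results of these data known. Alternatives changed the pseudocount, scaling, filter, threshold and handling of repeated symbols. Subtracting chromosome medians was added after seeing the data. The scripts were tested on simulated data. Scripts ran under Python 3.11.15 (scipy 1.17.1, pandas 2.3.3, matplotlib 3.10.9, numpy 2.4.6).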

Additional observations from a re-analysis of the deposited data

How the results depend on the processing

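None of the 210 recomputed ratios of single members changed sign. A change of pseudocount cannot alter a sign, and summing repeated symbols left every member as it was. Only both scalings and the chromosome medians could therefore have changed one. Of the 210 ratios, 204 moved by less than their counting error. The other 6 all came from subtracting chromosome medians, with Il6st and the higher Csf1 of JC-M3 given above, Csf1 at -0.07 for JC-P over JC-WT and Stat3 at -0.0964 for JC-M3 over JC-WT. The counts of called members are small and changed more. With pseudocount 0.1, 1 member was called higher for JC-P over JC-WT and 2 for JC-M3 over JC-P, each time with Il6 added, and 3 lower for JC-M3 over JC-WT, with Il11 added. With pseudocount 2, 0 were called higher for JC-M3 over JC-WT. With a mean of at least 10 TPM, which drops Il6, Csf2, Il11 and Il33, 1 member was called lower for JC-M3 over JC-P, 0 higher and 1 lower for JC-M3 over JC-WT. At 1.5-fold the calls higher and lower were 1 and 3 between JC-P and JC-WT, 4 and 4 between JC-M3 and JC-P, 3 and 5 between JC-M3 and JC-WT. At 3-fold they were 0 and 1 for JC-M3 over JC-P. The other alternatives, both scalings among them, kept these counts, and the median log2 ratio of all measured features lay between -0.0108 and 0.0210 under them. No member had a repeated symbol. No paired analysis was possible because each population has 1 library, and for the same reason no library could be left out. Depth limits Il6, Csf2 and Il33 most, with 5, 9 and 35 reads in their lowest library.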
